A study of Mus musculus with 12 samples.

Results

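Id1, Id2 and Id3 encode inhibitor of DNA binding proteins, and their transcripts were followed through 12 RNA-seq libraries of mouse granulocyte-macrophage progenitors (GMP, from which granulocytes and monocytes of the marrow develop). The 3 genes were taken by symbol from tables of 23362 genes. They were selected on the Id1 counts of the GMP libraries, which were higher in Xbp1-deficient cells, and because the family is known to steer eosinophil against neutrophil fate, so every genotype difference of these genes in GMP is given as a description, without a test. There were 4 groups of 3 libraries, all from C57BL/6 cells. Xbp1-deficient (KO) and wild-type (WT) GATA2-GMP were purified GMP that received GATA2 by transduction, were sorted again and spent 48 hours in culture. Xbp1-deficient (KO) and wild-type (WT) GMP were sorted straight into Trizol, with no transduction and no culture. XBP1 is the transcription factor that IRE1 activates during endoplasmic reticulum stress, and GATA2 is a transcription factor of the eosinophil, basophil and mast cell lineages. The Xbp1 allele, the cells that lost the gene and the animals behind the replicate numbers are not given in the sources used here, so p-values measure the spread between these libraries. GATA2-GMP libraries were made with a SMARTer Ultra Low Input kit ahead of TruSeq and GMP libraries with TruSeq alone. Stage, transduction, culture and kit therefore cannot be told apart.

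Basic helix-loop-helix (bHLH) transcription factors bind DNA as pairs, and the broadly expressed E proteins (E2A from Tcf3, E2-2 from Tcf4 and HEB from Tcf12) are the usual partner. Id proteins keep the helix-loop-helix that forms pairs but lack the basic region that touches DNA, so an E protein held by an Id protein cannot bind its sites. Id genes are classical early targets of bone morphogenetic protein (BMP) signalling through Smad1, Smad5 and Smad4. In human CD34+ progenitors forced Id1 is known to favour neutrophil over eosinophil output, and forced Id2 to speed the maturation of both. Id2 is also required in mice for natural killer cells, innate lymphoid cells and some dendritic cells.

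The genes lie on different chromosomes of mm9. Id1 is at chr2:152561987-152563146 on the plus strand, Id2 at chr12:25778666-25780957 on the minus strand and Id3 at chr4:135699412-135701670 on the plus strand. No other annotated gene overlapped any of them in GENCODE vM1. RefSeq promoter windows were matched for 2 of the 3 genes, Id2 and Id3, and the 250 bases before each start are shown to set Id2, which differed most between the stages, beside Id3, which had few reads in either. They are from build GRCm38.p6, chr12:25096093-25096342 on the minus strand for Id2 and chr4:136143572-136143821 on the plus strand for Id3, written 5′ to 3′ on the gene's own strand. Capitals mark every match, on either strand, to GATAA (GATA factors), TGACGT (core of the unfolded protein response element), CCAAT (the NF-Y box), CCACG (part of the ER stress element), GGCGCC (a GC box of BMP-responsive genes) or CANNTG (the E-box that E proteins bind).
Id2: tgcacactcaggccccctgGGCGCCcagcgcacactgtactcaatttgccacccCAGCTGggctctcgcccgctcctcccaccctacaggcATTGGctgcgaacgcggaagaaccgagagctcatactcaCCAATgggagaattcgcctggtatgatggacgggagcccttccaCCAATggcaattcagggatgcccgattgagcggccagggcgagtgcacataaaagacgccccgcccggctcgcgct
Id3: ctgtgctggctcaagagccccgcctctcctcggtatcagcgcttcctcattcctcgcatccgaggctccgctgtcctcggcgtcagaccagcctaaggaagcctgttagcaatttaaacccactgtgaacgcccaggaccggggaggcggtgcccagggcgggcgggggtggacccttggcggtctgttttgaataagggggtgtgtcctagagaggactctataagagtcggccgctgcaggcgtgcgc
The Id2 window held 3 CCAAT matches, at 159, 120 and 76 bases before the start, 1 GGCGCC match at 231 bases and 1 CANNTG match at 196 bases. None of these matches overlapped another. The Id3 window held no match to any of the 6 motifs, which says only that these letters are not in this window. Of 32851 windows of the same length, 33.8% held CCAAT, 9.59% GGCGCC, 66.2% CANNTG, 28.3% CCACG, 22.6% GATAA and 6.47% TGACGT. Both windows had a GC content of 62.8%.

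Library totals ran from 8219366 to 33640911 counts, and 13885 to 16455 genes had a count. Xbp1 itself was lower in every KO library than in every WT library of its stage, at 99.8, 121.5 and 127.7 CPM (counts scaled to library size) against 381, 269 and 197 CPM in GATA2-GMP, and 89.8, 55.9 and 56.8 CPM against 131, 133 and 153 CPM in GMP. These reads remain in KO, and neither fold change passed the threshold (edgeR adjusted p = 0.0959 in GATA2-GMP and 0.0919 in GMP). All 8 GMP markers had counts in the GMP libraries and summed to 22560 to 28710 CPM there, while 8 of the 9 eosinophil markers found had counts in GMP and summed to at most 611 CPM. In GATA2-GMP all 9 eosinophil markers had counts, with sums of 55800 to 67870 CPM in KO and 135400 to 206700 CPM in WT. The 10 neutrophil markers summed to 37490 to 62040 CPM in GATA2-GMP KO and 40940 to 72740 CPM in GATA2-GMP WT. These cultures thus held transcripts of several lineages, and in bulk RNA fewer cells of a type and less RNA per cell cannot be told apart.

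Id2 was the most abundant Id transcript of GATA2-GMP, Id1 came next, and Id3 was close to the detection limit in all 12 libraries. All CPM of single genes are scaled by TMM over the 12 libraries. Per kilobase of exon, Id2 averaged 877.5 ± 331 CPM in GATA2-GMP KO and 914 ± 106 CPM in GATA2-GMP WT (SD, n = 3 each). Id1 averaged 74.4 ± 39.1 CPM per kilobase in GATA2-GMP KO and 76.9 ± 44.9 in GATA2-GMP WT on the same scale. In GMP the order of the means differed, and the Id1 values there entered the choice of genes. Id1 averaged 4.74 ± 0.57 CPM per kilobase in GMP KO and 2.36 ± 0.23 in GMP WT, and Id2 averaged 2.52 ± 0.38 in GMP KO and 1.98 ± 0.55 in GMP WT. Id3 averaged at most 0.239 CPM per kilobase in any group.

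**Figure D1:**
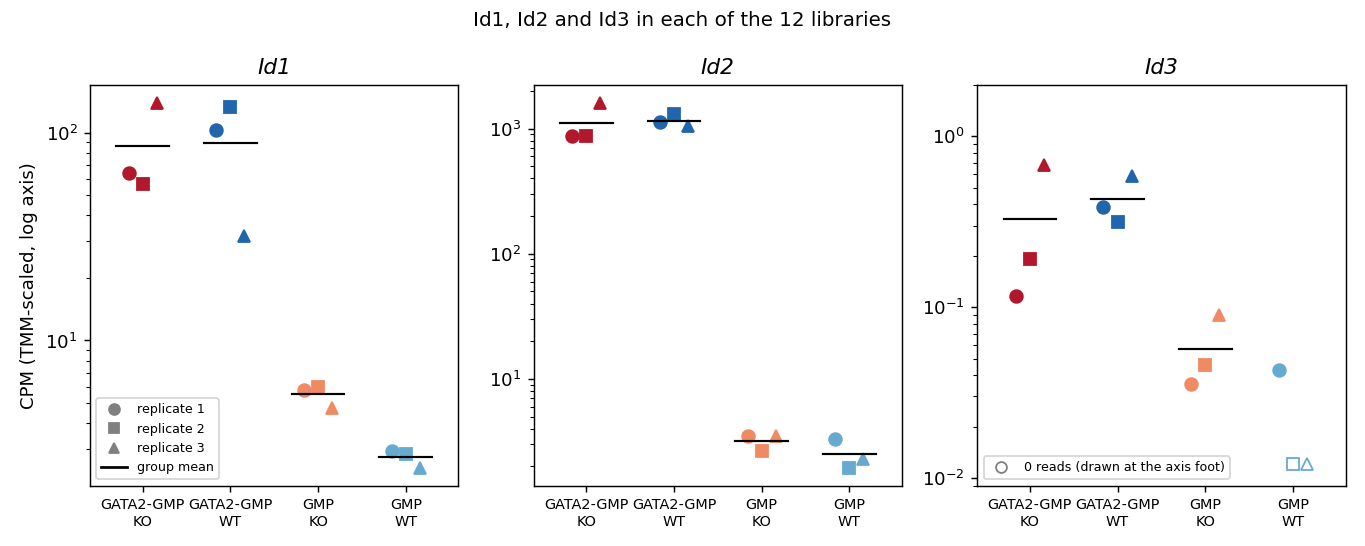
Each point is 1 library, with CPM scaled by TMM over the 12 libraries on a log axis, black lines at group means, open symbols for libraries with 0 reads, and no mean line where a library has 0. Id1 and Id2 lie higher in all 6 GATA2-GMP libraries than in any GMP library, and the lowest Id2 value in GATA2-GMP is 867.5 CPM, against 3.49 CPM as the highest in GMP.

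In GMP, Id1 had 5.79, 5.97 and 4.75 CPM in KO libraries and 2.95, 2.83 and 2.45 CPM in WT libraries. The groups did not overlap, as was the case for 19.4% of the 12002 genes tested, 11.3% with KO higher and 8.09% with KO lower. In the same comparison 3.17% of genes were called, 0.658% higher and 2.52% lower. The fold change, 2.004 (log2 1.003, SE 0.15), was the value that chose the gene. It rests on few reads, 162, 260 and 53 counts in KO and 69, 71 and 49 in WT. Id1 ranked between 9281 and 10238 by CPM in these libraries, so it is a minor transcript of GMP of either genotype.

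Id2 had 3.47, 2.64 and 3.49 CPM in GMP KO and 3.29, 1.95 and 2.298 CPM in GMP WT. The groups overlapped, since the WT library of replicate 1 lay above the KO library of replicate 2. The log2 difference was 0.30 (SE 0.23). Id3 had 1, 2 and 1 reads in GMP KO and 1, 0 and 0 reads in GMP WT. The ratio of their depth-scaled sums was 3.31, with an exact 95% counting interval of 0.328 to 163. At 1 read against 4 no difference in Id3 was detectable at this depth, and such intervals cover counting error only. The Id2 groups thus overlapped in GMP, and Id3 could not be judged.

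Within GATA2-GMP, where the choice of genes used no value, neither Id1 nor Id2 passed the genotype test. Id1 had 64.2, 56.4 and 138.5 CPM in KO libraries and 103, 133 and 31.7 CPM in WT libraries. The groups overlapped fully, and the spread within a genotype was wide, with a highest value 2.46 times the lowest in KO and 4.2 times in WT. The log2 fold change was -0.04 (SE 0.51, edgeR adjusted p = 0.977), and its 95% interval, -1.19 to 1.10, includes differences of the size seen in GMP in either direction. Leaving out the KO library of replicate 3 gave -0.57 and leaving out the WT library of replicate 2 gave 0.36, so that a single library sets the sign. These 6 libraries called 44 of 11699 genes, or 0.376%, with 0.103% higher and 0.274% lower in KO.

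Id2 had 867.5, 875 and 1600 CPM in GATA2-GMP KO and 1125, 1310 and 1047 CPM in GATA2-GMP WT. Both the highest and the lowest values were in KO libraries, and the WT values lay between them. The log2 fold change was -0.05 (SE 0.30, 95% interval -0.73 to 0.63, edgeR adjusted p = 0.952), and it ran from -0.41 without the KO library of replicate 3 to 0.10 without the KO library of replicate 1. On raw library totals the ratio of summed counts was above 1 for both genes, at 1.09 for Id1 and 1.06 for Id2, against 0.956 and 0.933 on TMM-scaled totals, so the direction also turns with the scaling. Id3 had 2, 3 and 9 reads in GATA2-GMP KO and 5, 5 and 10 in GATA2-GMP WT, a ratio of 0.699 with an exact 95% counting interval of 0.327 to 1.455. Neither genotype had the higher Id1, Id2 or Id3 in these cultures beyond the spread or the counting error.

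The KO library with the highest Id1 and Id2, replicate 3, also had the highest summed neutrophil (62040 CPM), monocyte and macrophage (5110 CPM) and mast cell and basophil markers (13800 CPM) of the KO group. Among WT libraries the highest Id1 and Id2 fell in replicate 2, which had the highest mast cell and basophil sum (13900 CPM) and the lowest neutrophil sum (40940 CPM). These KO and WT libraries also had the highest dendritic cell (237.7 and 81.55 CPM) and lymphoid and natural killer cell sums (53.44 and 61.23 CPM) of their groups. The same held for GMP markers (5927 and 9142 CPM). The eosinophil sum was the lowest of its group in WT replicate 2 (135400 CPM) and the middle value in KO replicate 3 (59970 CPM). Summed mast cell and basophil markers ran from 8279 to 13800 CPM in KO and from 4863 to 13900 CPM in WT, with only Mcpt4 at 0, in WT. The part of these cell types in the spread of the Id genes was not tested.

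The genotype difference of Id1 in GATA2-GMP minus that in GMP was -1.06 on the log2 scale (SE 0.64), and that of Id2 was -0.39 (SE 0.38). Both contain the values that chose the genes and are given without a test. Of all 12803 genes in this contrast 0.0859% were called, 0.0312% higher and 0.0547% lower. For Id1 the SE in GATA2-GMP, 0.51, was over 3 times that in GMP, 0.15, so the precision of this contrast is set by the cultured libraries.

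**Figure D2:**
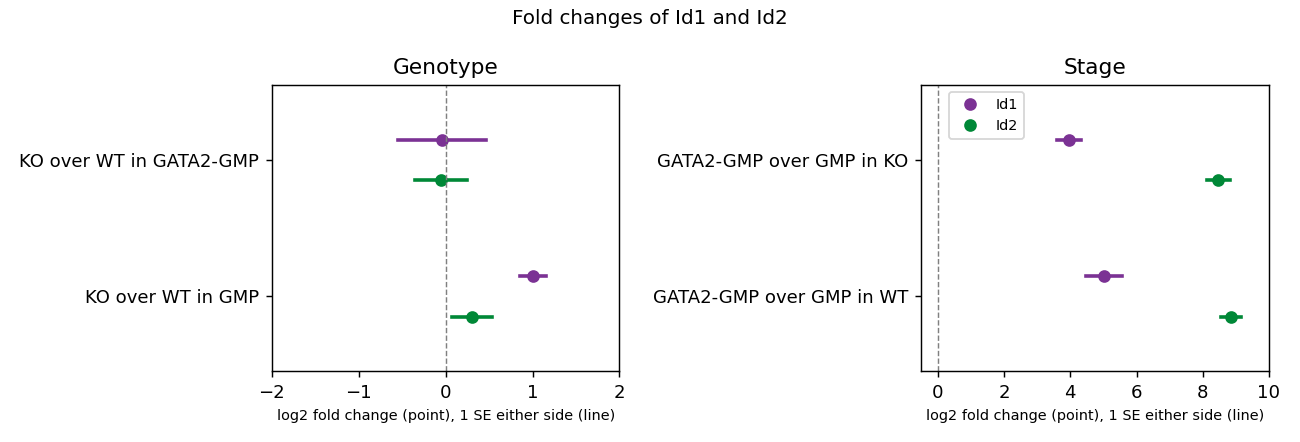
Points are edgeR log2 fold changes and lines reach 1 SE either side, for genotype (left panel, KO over WT) and stage (right panel, GATA2-GMP over GMP). Id1 lies at 1.003 in GMP and at -0.04 in GATA2-GMP with a much wider line, while both genes lie at 3.96 or above for stage in either genotype.

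Between the stages Id2 was among the genes with the largest rises. In KO, Id2 rose to the 867.5, 875 and 1600 CPM of GATA2-GMP, against 3.47, 2.64 and 3.49 CPM in GMP, a fold change of 356 (log2 8.47, SE 0.36, edgeR adjusted p = 2.4e-07). In WT, Id2 rose to 1125, 1310 and 1047 CPM in GATA2-GMP, against 3.29, 1.95 and 2.298 CPM in GMP, a fold change of 463 (log2 8.86, SE 0.30, edgeR adjusted p = 1.91e-06). Its log2 fold change ranked 126th from the top of 12438 genes in KO and 104th of 12251 in WT. Calls were common here, since 78.6% of genes passed in KO and 70.5% in WT, with 38.6% and 34.1% higher, so the rank says more than the call. The libraries of the stages did not overlap, which held for 82.4% of genes in KO and 77.2% in WT, with 39.6% and 35.8% higher. Id2 took a rank by CPM of 97 to 155 in GATA2-GMP libraries and of 9832 to 10407 in GMP libraries.

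TMM scaling moved the median gene by 0.668 log2 units in KO and 0.828 in WT relative to raw library totals. On raw totals the ratios of summed Id2 counts were 227 in KO and 260 in WT, so the rise remains more than 200-fold there. The labelled agents and steps that separate the stages also include the kit, and its share in these folds cannot be told apart.

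Id1 was higher in GATA2-GMP as well, by less, and its values are a description because its GMP libraries entered the choice. The log2 fold change was 3.96 (SE 0.36) in KO, where every GATA2-GMP library lay above 56 CPM and no GMP library above 5.97 CPM. It was 5.03 (SE 0.54) in WT, where the lowest GATA2-GMP library had 31.7 CPM and the highest GMP library 2.95 CPM. On raw totals the ratios were 9.18 in KO and 17.7 in WT. Leaving out the KO library of replicate 3 of GATA2-GMP lowered the KO value to 3.41.

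Id3 had 14 reads over the GATA2-GMP KO libraries and 4 over the GMP KO libraries, a depth-scaled ratio of 6.28 with an exact 95% counting interval of 1.97 to 26.2. In WT there were 20 reads in GATA2-GMP and 1 in GMP, a ratio of 29.8 with an interval of 4.76 to 1234. Both intervals lie above 1, also on raw totals, but Id3 did not pass the filter on low counts in any comparison. Kept in a fit without that filter, Id3 had 2.44 (log2, SE 1.15, edgeR adjusted p = 0.065) in KO and 4.32 (log2, SE 1.22, edgeR adjusted p = 0.0106) in WT. Id4, the remaining gene of the family, had no read in any GMP library, had 5, 2 and 1 reads in GATA2-GMP KO, and had 16, 0 and 0 in GATA2-GMP WT. All 16 WT reads came from 1 library. The 0 reads of the GMP groups allow up to 0.0471 CPM in KO and 0.0563 CPM in WT on raw totals, and a lincRNA gene, A330033J07Rik, overlaps Id4 on the other strand.

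The balance between Id1 and Id2 was shifted towards Id2 in GATA2-GMP. Per kilobase of exon, the ratio of Id2 to Id1 was 12.3, 14.2 and 10.6 in GATA2-GMP KO and 10, 8.98 and 30.2 in GATA2-GMP WT. It was 0.547, 0.404 and 0.672 in GMP KO and 1.02, 0.630 and 0.858 in GMP WT. Id2 exceeded Id1 in all 6 GATA2-GMP libraries and in 1 of the 6 GMP libraries, GMP WT replicate 1. The ratio averaged 0.836 ± 0.195 in GMP WT and 0.541 ± 0.134 in GMP KO (SD, n = 3 each). The GMP values of Id1 that chose the gene are part of these ratios and of the shares that follow. Id2 made up 91.3 to 93.4% of the summed Id1, Id2 and Id3 per kilobase in GATA2-GMP KO and 89.97 to 96.8% in GATA2-GMP WT, against 28.7 to 39.9% in GMP KO and 38.7 to 50.2% in GMP WT.

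The E protein genes, whose products the Id proteins bind, fell between the stages in both genotypes. All 3 of 3 tested fell in KO, where 40.0% of all genes fell, and all 3 fell in WT, where 36.4% did. Tcf3 had 9.56, 8.19 and 9.68 CPM in GATA2-GMP KO, against 152.1, 151.8 and 152.2 CPM in GMP KO (log2 -4.05, SE 0.14, edgeR adjusted p = 1.33e-07). In WT it had 15.8, 12.2 and 9.61 CPM in GATA2-GMP, against 139, 145 and 149 CPM in GMP (log2 -3.53, SE 0.21, edgeR adjusted p = 8.06e-06). The fall of Tcf3 is more than 8-fold in each genotype, and the libraries of the stages lie far apart. Groups that do not overlap with GATA2-GMP lower made up 42.8% of genes in KO and 41.4% in WT.

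Tcf4 had 20.2, 16.9 and 14.4 CPM in GATA2-GMP KO, against 48.2, 57.2 and 50.1 CPM in GMP KO (log2 -1.58, SE 0.17, edgeR adjusted p = 2.47e-05). In WT, Tcf4 had 10.3, 12.6 and 13.1 CPM in GATA2-GMP, against 55.7, 57.7 and 63.3 CPM in GMP (log2 -2.29, SE 0.18, edgeR adjusted p = 1.83e-05). Tcf12 fell least, by 0.61 (SE 0.15, edgeR adjusted p = 0.00463) in KO and by 0.86 (SE 0.14, edgeR adjusted p = 0.000813) in WT on the log2 scale. It is the main E protein transcript per kilobase of GATA2-GMP, with 10.38 to 14.46 CPM per kilobase in KO and 9.63 to 11.3 in WT, whereas Tcf3 led in GMP with 37.6 to 37.7 in KO and 34.5 to 37.0 in WT. The median log2 fold change of the 3 genes was -1.58 in KO and -2.29 in WT, beside -0.06 and -0.09 over all genes tested. Pseudogene or rRNA annotations overlap Tcf4 and Tcf12.

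**Figure D3:**
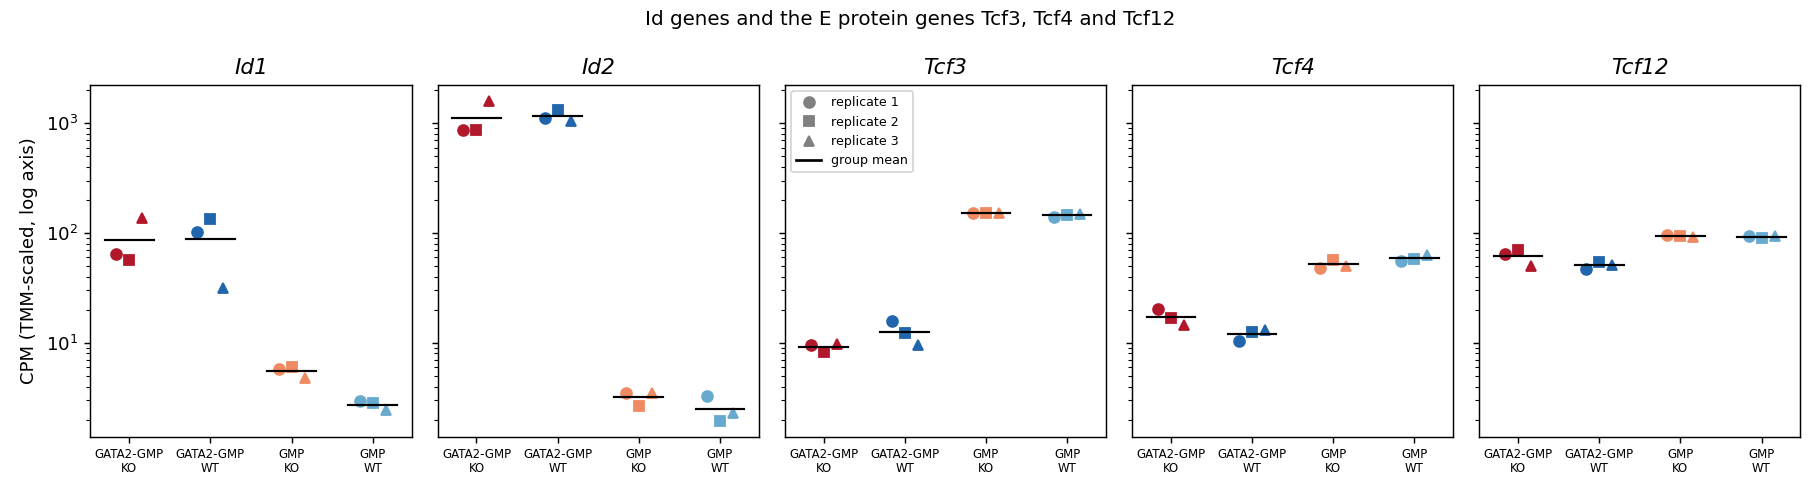
CPM (TMM-scaled, log axis) of Id1 and Id2 and of the E protein genes Tcf3, Tcf4 and Tcf12 in each library, with black lines at group means. The Id genes are higher and the E protein genes lower in GATA2-GMP of both genotypes, and Tcf3 moves most of the 3, with 8.19 to 15.8 CPM in GATA2-GMP against 139 to 152.2 CPM in GMP.

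The summed Id transcripts per kilobase, divided by the summed E protein transcripts per kilobase, came to 42.9, 41.3 and 98.9 in GATA2-GMP KO and 67.8, 74.9 and 61.0 in GATA2-GMP WT. The same ratio was 0.126, 0.118 and 0.114 in GMP KO and 0.0886, 0.0670 and 0.0636 in GMP WT. E protein transcripts therefore outnumbered Id transcripts in every GMP library, and the reverse held in every GATA2-GMP library. The ratio does not depend on the scaling of a library, since both sums come from the same library, but it does not remove the difference in kit between the stages. It counts transcripts, not proteins, and the GMP values of Id1 that chose the gene are part of it.

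**Figure D4:**
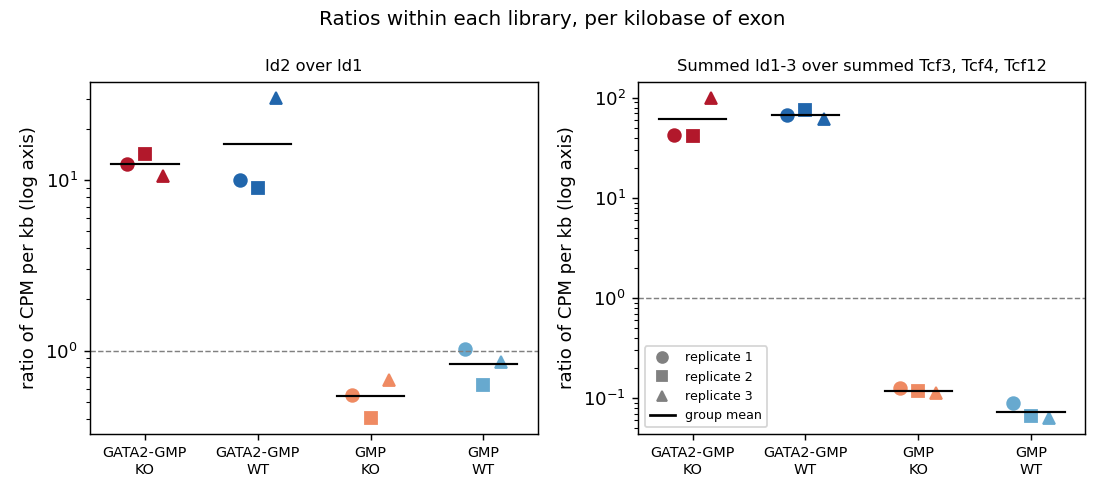
Ratios of CPM per kilobase of exon within each library on a log axis, Id2 over Id1 on the left and summed Id1, Id2 and Id3 over summed Tcf3, Tcf4 and Tcf12 on the right, with a dashed line at 1 and black lines at group means. The ratio on the right is at least 41.3 in every GATA2-GMP library and at most 0.126 in every GMP library.

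Genotype left no call on the E protein genes. Here and below, list counts at an unadjusted p under 0.05 are descriptions, since the share of all genes under that rule was not computed. Over all genes DESeq2 called 504 in GATA2-GMP and 489 in GMP. In GATA2-GMP edgeR called 0 of 3, with 0 at an unadjusted p under 0.05 and 0 by DESeq2. Tcf4 averaged 17.2 ± 2.92 CPM in KO and 11.96 ± 1.47 CPM in WT (SD, n = 3 each), groups that did not overlap, as was true of 22.6% of genes, 10.2% with KO higher (log2 0.53, SE 0.25, edgeR adjusted p = 0.379). Tcf3 had a log2 difference of -0.45 (SE 0.28, edgeR adjusted p = 0.495) and Tcf12 one of 0.28 (SE 0.22, edgeR adjusted p = 0.601). In GMP edgeR also called 0 of 3, with 1 lower at an unadjusted p under 0.05 and 0 by DESeq2, where 3.17% of all genes were called. That gene was Tcf4, at -0.20 (SE 0.08, edgeR adjusted p = 0.264). Tcf3 was at 0.06 (SE 0.05, edgeR adjusted p = 0.678) and Tcf12 at 0.01 (SE 0.05, edgeR adjusted p = 0.963) in GMP. The narrow errors in GMP leave room only for small changes of Tcf3 and Tcf12, with 95% intervals of Tcf3 from -0.06 to 0.18.

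Among the 11 listed tissue-restricted bHLH factors and members of their DNA-bound complex, 3 rose and 5 fell of 8 tested in KO, and 3 rose and 5 fell of 9 tested in WT. Of all genes 38.6% rose and 40.0% fell in KO, and 34.1% rose and 36.4% fell in WT. Bhlhe40, a bHLH repressor that binds E-boxes without an E protein, rose in both genotypes. It averaged 815 ± 29.6 CPM in GATA2-GMP KO and 6.22 ± 1.72 CPM in GMP KO (SD, n = 3 each, log2 7.05, SE 0.26, edgeR adjusted p = 1.58e-07). In WT it averaged 663 ± 291 CPM in GATA2-GMP and 4.13 ± 0.80 CPM in GMP (SD, n = 3 each, log2 7.33, SE 0.41, edgeR adjusted p = 6.07e-06). Its relative Bhlhe41 had 425 reads in GATA2-GMP KO against 2 in GMP KO, a ratio of 381 with an exact 95% counting interval of 105 to 3157. In WT, Bhlhe41 had 151 reads in GATA2-GMP and none in GMP, at least 74.9-fold higher over a floor of 3 counts for the group, and at least 42.2-fold on raw totals.

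Lmo2, Ldb1, Tal1 and Lyl1, whose products form with E proteins a DNA-bound complex of blood progenitors, fell in both genotypes, as did Ascl2, a bHLH factor outside that complex. Cbfa2t3, a corepressor that joins the complex, rose by 0.91 (SE 0.19, edgeR adjusted p = 0.00191) in KO and by 1.61 (SE 0.18, edgeR adjusted p = 0.000103) in WT on the log2 scale. Ldb1, the bridging protein, fell by 3.81 (SE 0.18) in KO and by 3.14 (SE 0.24) in WT on the log2 scale, and Lmo2, its LIM partner, fell by 2.65 (SE 0.15) and by 2.15 (SE 0.15). Lyl1 fell by 3.57 (SE 0.21) in KO and Tal1 by 1.64 (SE 0.18) in WT. The edgeR adjusted p of these values were between 3.14e-07 and 9.31e-05. The list's median was -2.42 in KO and -1.64 in WT.

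Genotype called none of this list in GATA2-GMP by edgeR, with 1 higher and 2 lower at an unadjusted p under 0.05 and 1 lower by DESeq2. In GMP edgeR called 0 of 7 as well, with 2 higher at an unadjusted p under 0.05 and 0 by DESeq2. In GMP a pairing of same-numbered KO and WT libraries was inferred from the counts, and no label states it. The fit with this replicate block called 3 genes higher in KO. That fit called 8.03% of all genes, 3.30% higher and 4.73% lower. The 3 genes were Lyl1 (log2 0.20, SE 0.05, edgeR adjusted p = 0.0125, against 0.0836 without the block), Bhlhe40 (0.55, SE 0.14, 0.02 against 0.283) and Cbfa2t3 (0.18, SE 0.05, 0.0454 against 0.425).

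Genes upstream of the Id family in BMP and TGF-beta signalling moved in both directions, with more falls than rises in each list and genotype. Among all genes 38.6% rose and 40.0% fell in KO, and 34.1% and 36.4% in WT. Of 19 ligands and receptors, 3 rose and 7 fell of 12 tested in KO, and 4 rose and 7 fell of 12 tested in WT. Bmpr1a, a type I BMP receptor, had 37.9 ± 15.8 CPM in GATA2-GMP KO and 0.220 ± 0.037 CPM in GMP KO (SD, n = 3 each, log2 7.35, SE 0.46, edgeR adjusted p = 1.5e-06). In WT, Bmpr1a had 40.4 ± 2.65 CPM in GATA2-GMP and 0.0741 ± 0.029 CPM in GMP (SD, n = 3 each, log2 8.99, SE 0.29, edgeR adjusted p = 1.87e-06). Bmpr1a thus passed from a few reads per GMP library, 19 over the KO group and 5 over the WT group, to 1804 over GATA2-GMP KO and 1849 over GATA2-GMP WT.

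Tgfb1, a TGF-beta ligand, fell to 2.299 ± 0.45 CPM in GATA2-GMP KO, against 197 ± 14.2 CPM in GMP KO (SD, n = 3 each, log2 -6.41, SE 0.19), and by 5.79 (SE 0.24) in WT on the log2 scale. Eng, a co-receptor of BMP9 and TGF-beta ligands, fell by 5.30 (SE 0.32) in KO and by 6.06 (SE 0.35) in WT. The activin type I receptor gene Acvr1b fell by 2.90 (SE 0.24) in KO and by 3.63 (SE 0.35) in WT. The largest edgeR adjusted p among these was 6.14e-05. The list's median log2 fold change was -1.23 in KO and -1.83 in WT, beside -0.055 and -0.092 over all genes tested.

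Of 6 Smad genes, 1 rose and 4 fell of 5 tested in KO, and 1 rose and 3 fell of 5 tested in WT. Of all genes 38.6% rose and 40.0% fell in KO, and 34.1% and 36.4% did so in WT. Smad3, a TGF-beta effector, fell most, by 3.88 (SE 0.25, edgeR adjusted p = 1.5e-06) in KO and by 3.81 (SE 0.25, edgeR adjusted p = 1.06e-05) in WT. Smad5, which carries BMP signals to Id genes, fell by 1.02 (SE 0.15, edgeR adjusted p = 0.000205) in KO and by 1.2 (SE 0.19, edgeR adjusted p = 0.000721) in WT. Smad1, the other BMP effector, fell by 0.81 (SE 0.21, edgeR adjusted p = 0.00611) in KO, and had a log2 fold change of -0.39 (SE 0.19, edgeR adjusted p = 0.109) in WT. Smad2, a TGF-beta effector, rose by 0.91 (SE 0.13, edgeR adjusted p = 0.000126) in KO and by 0.43 (SE 0.14, edgeR adjusted p = 0.0261) in WT, a direction that turns to -0.40 on raw totals in WT. Smad4, the common partner, fell by 0.72 (SE 0.14, edgeR adjusted p = 0.000918) in KO and by 0.60 (SE 0.21, edgeR adjusted p = 0.0306) in WT. In WT the call on Smad2 is lost without any 1 of the 3 GMP libraries (edgeR adjusted p = 0.112, 0.093 and 0.127) and with no filter on low counts (0.0929). That on Smad4 is lost without any 1 of them (0.0705, 0.0722 and 0.0945), without GATA2-GMP WT replicate 2 (0.101), and with DESeq2 size factors (0.0666).

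Of 12 inhibitors and feedback genes, 1 rose and 6 fell of 9 tested in KO, and 2 rose and 4 fell of 9 tested in WT, beside the same shares of all genes. Skil, a corepressor of Smads, rose by 2.48 (SE 0.14, edgeR adjusted p = 6.76e-07) in KO and by 2.51 (SE 0.17, edgeR adjusted p = 1.13e-05) in WT. Smad6, an inhibitory Smad of the BMP branch that is itself a BMP target, fell by 3.55 (SE 0.46, edgeR adjusted p = 9.09e-05) in KO and by 4.24 (SE 0.65, edgeR adjusted p = 0.000607) in WT. Bambi, a decoy receptor, fell by 3.24 (SE 0.23, edgeR adjusted p = 2.44e-06) in KO and by 2.29 (SE 0.45, edgeR adjusted p = 0.0021) in WT. The inhibitory Smad7 fell by 1.54 (SE 0.20, edgeR adjusted p = 8.83e-05) in KO, and had a log2 fold change of -0.24 (SE 0.24, edgeR adjusted p = 0.403) in WT. Smurf2, a ubiquitin ligase that acts on Smads and receptors, had a log2 fold change of -0.91 (SE 0.15, edgeR adjusted p = 0.00046) in KO and -1.08 (SE 0.21, edgeR adjusted p = 0.00222) in WT. The median was -0.73 in KO and -0.55 in WT, beside -0.055 and -0.092 over all genes tested.

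**Figure D5:**
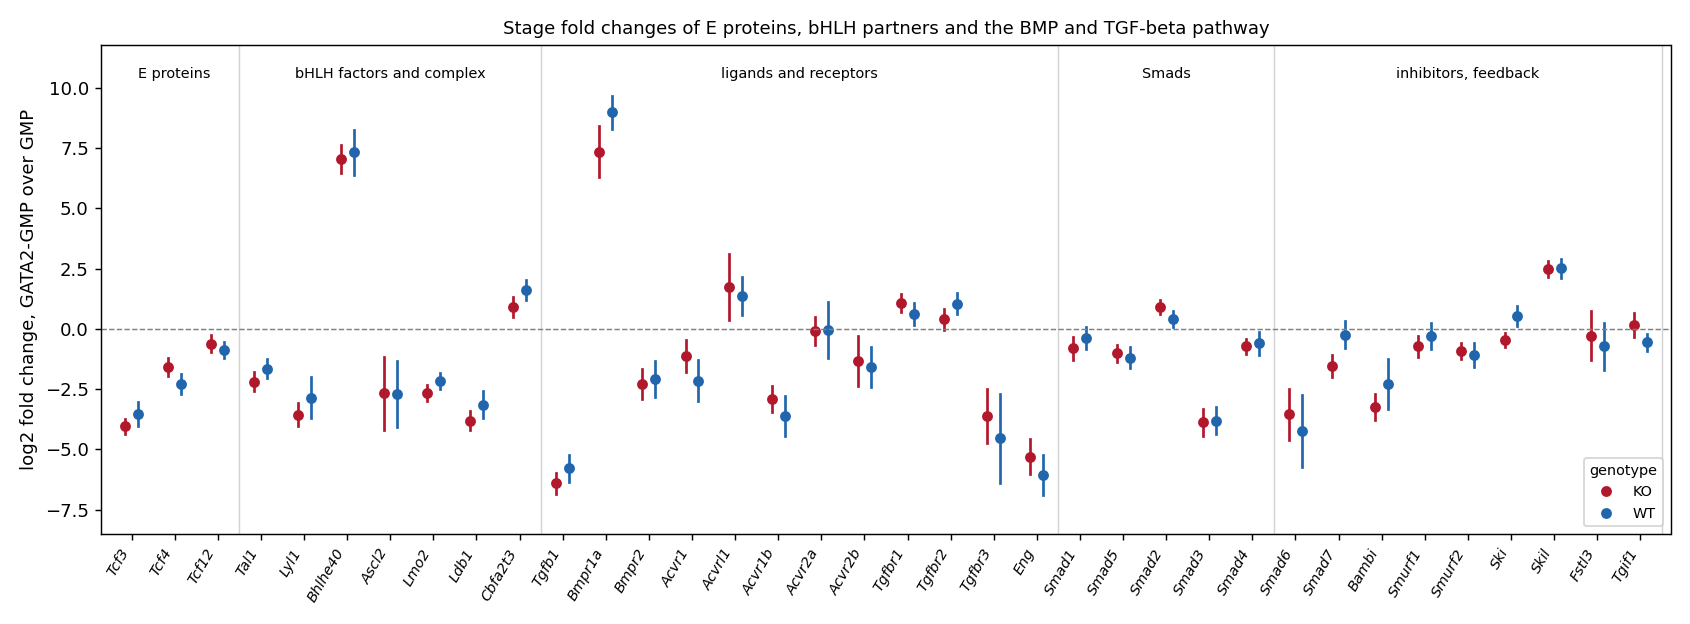
Points are edgeR log2 fold changes of GATA2-GMP over GMP and lines are 95% intervals, KO in red left of WT in blue, for every member of the 5 lists that was tested in both genotypes and had a read in both GMP groups. Bmpr1a and Bhlhe40 lie above 7 in both genotypes, and Tgfb1 and Eng lie below -5.

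Genotype called 0 members of the 3 pathway lists by edgeR in either stage. In GATA2-GMP, at an unadjusted p under 0.05, 1 ligand or receptor was lower, 1 Smad gene was higher, and 1 inhibitor was higher and 2 were lower. DESeq2 called 2 inhibitors lower there. In GMP, at an unadjusted p under 0.05, 1 Smad gene was lower and no other member of these lists was counted, and DESeq2 called 0. The members with the smallest p in GATA2-GMP, singled out after their values were seen, were Ski, a Smad corepressor, at 29.7 ± 2.25 CPM in KO and 56.2 ± 8.08 CPM in WT (SD, n = 3 each, log2 -0.92, SE 0.22, edgeR adjusted p = 0.121), and the inhibitory Smad7, at 3.86 ± 0.24 CPM in KO and 9.31 ± 2.36 CPM in WT (SD, n = 3 each, log2 -1.26, SE 0.32, edgeR adjusted p = 0.129). Both had KO values below every WT value, as was true of 12.3% of all genes tested there. Bmpr1a had a log2 genotype difference of -0.09 (SE 0.33, edgeR adjusted p = 0.927) in GATA2-GMP.

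Of 13 factors known to act on Id genes, 3 rose and 7 fell of 11 tested in KO, and 3 rose and 7 fell of 12 tested in WT, beside 38.6% and 40.0% of all genes in KO and 34.1% and 36.4% in WT. Gfi1b, a repressor of blood cell genes, rose to 48.7 ± 5.79 CPM in GATA2-GMP KO, against 0.725 ± 0.071 CPM in GMP KO (SD, n = 3 each, log2 6.10, SE 0.20, edgeR adjusted p = 1.02e-07). In WT, Gfi1b rose to 94.7 ± 11.1 CPM in GATA2-GMP, against 1.002 ± 0.914 CPM in GMP (SD, n = 3 each, log2 6.61, SE 0.56, edgeR adjusted p = 3.06e-05). Gfi1, which represses Id1 and Id2 in mouse blood progenitors, fell by 2.82 (SE 0.18, edgeR adjusted p = 1.6e-06) in KO and by 2.57 (SE 0.20, edgeR adjusted p = 2.26e-05) in WT. Klf4, a zinc finger factor, had a log2 fold change of -5.67 (SE 0.25, edgeR adjusted p = 2.43e-07) in KO and -5.20 (SE 0.41, edgeR adjusted p = 2.34e-05) in WT. Cebpb rose by 1.81 (SE 0.16, edgeR adjusted p = 8.41e-06) in KO and by 2.32 (SE 0.16, edgeR adjusted p = 1.16e-05) in WT. The median was -0.69 in KO and -1.49 in WT.

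In GATA2-GMP genotype called 0 of 12 of these factors by edgeR, with 3 higher and 1 lower at an unadjusted p under 0.05, and 2 higher and 1 lower by DESeq2. In GMP edgeR called 0 of 11, with 2 higher at an unadjusted p under 0.05 and 0 by DESeq2. With the replicate block, under which 3.30% of all genes were higher, 2 were higher in GMP KO, where Id1 was higher too. Gfi1 had 242, 165.9 and 175.5 CPM in GMP KO and 181, 145.5 and 136.5 CPM in GMP WT (blocked log2 0.31, SE 0.05, edgeR adjusted p = 0.00119, against 0.491 without the block). Each KO library lay above the WT library of the same number, while the groups overlapped. Cebpb had 21.8, 17.8 and 16.5 CPM in GMP KO and 15.2, 13.5 and 14.3 CPM in GMP WT (blocked log2 0.37, SE 0.08, edgeR adjusted p = 0.00774, against 0.0787 without the block).

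Of the 12 eosinophil and neutrophil lineage factors, 11 were found, and 5 rose and 6 fell of 11 tested in KO, and 5 rose and 5 fell of 11 tested in WT. These shares stand beside 38.6% and 40.0% of all genes in KO and 34.1% and 36.4% in WT. Gata1, the factor of eosinophil commitment, rose to 117 ± 19.8 CPM in GATA2-GMP KO, against 1.87 ± 0.42 CPM in GMP KO (SD, n = 3 each, log2 5.97, SE 0.23, edgeR adjusted p = 1.87e-07), and by 6.62 (SE 0.41, edgeR adjusted p = 8.58e-06) in WT on the log2 scale. Gata2 rose by 3.29 (SE 0.16, edgeR adjusted p = 2.97e-07) in KO and by 3.35 (SE 0.30, edgeR adjusted p = 4.24e-05) in WT, and its reads can include the transduced GATA2. Irf8, a monocyte and dendritic cell factor, fell to 10 reads over GATA2-GMP KO, against 29533 over GMP KO, and to 9 over GATA2-GMP WT, against 20068 over GMP WT. Its log2 fold change was -10.62 (SE 0.42, edgeR adjusted p = 1.98e-07) in KO and -10.48 (SE 0.51, edgeR adjusted p = 4.1e-06) in WT. Cebpa, required for the GMP stage, fell by 4.77 (SE 0.21, edgeR adjusted p = 2.53e-07) in KO and by 4.57 (SE 0.30, edgeR adjusted p = 1.11e-05) in WT. The list's median was -0.86 in KO and 0.14 in WT. Genotype called 0 of these factors by edgeR in either stage. In GATA2-GMP 2 were lower at an unadjusted p under 0.05, in GMP 1 was higher and 1 lower, and DESeq2 called 0 in both.

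Of 17 genes known to respond to E proteins or Id proteins, 8 rose and 3 fell of 12 tested in KO, and 6 rose and 2 fell of 11 tested in WT, beside 38.6% and 40.0% of all genes in KO and 34.1% and 36.4% in WT. Cdkn1a, a cell cycle inhibitor that E proteins activate and Id proteins restrain in other cells, rose by 3.38 (SE 0.18, edgeR adjusted p = 6.87e-07) in KO and by 3.64 (SE 0.20, edgeR adjusted p = 5.7e-06) in WT. Il7r, the interleukin-7 receptor chain, had 1130 reads over GATA2-GMP KO against 1 over GMP KO, a ratio of 2026 with an exact 95% counting interval of 363 to 80110. In WT it had 438 reads in GATA2-GMP and none in GMP, at least 217-fold higher over a floor of 3 counts for the group, and at least 122.5-fold on raw totals. Cdk6, a kinase gene that E2A represses in lymphocytes, fell by 2.96 (SE 0.16, edgeR adjusted p = 6.1e-07) in KO and by 2.84 (SE 0.20, edgeR adjusted p = 1.51e-05) in WT. Rag2, an E protein target of lymphoid progenitors, had 1 read over GATA2-GMP KO against 111 over GMP KO (ratio 0.0162, exact 95% counting interval 0.000405 to 0.0919). Socs1, a cytokine feedback gene, rose by 3.92 (SE 0.36, edgeR adjusted p = 4.34e-05) in WT.

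The median of the responding genes was 1.902 in KO and 2.004 in WT, and stayed at these values with genes at 0 reads in GMP set to their bound. Genotype called 0 of them by edgeR in either stage. At an unadjusted p under 0.05, 1 was higher and 1 lower in each stage, and DESeq2 called 1 higher and 1 lower in GATA2-GMP and 0 in GMP.

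Likeness of pattern was measured as Pearson's r of log2 CPM over the 12 libraries, among genes whose spread was at least 0.5 times that of the member, and it describes mostly the stage contrast that the libraries share. For Id2, 383 of 796 genes searched had an r above 0.95, and the 5 most alike were Lilrb4 (0.9992), Tnfrsf18 (0.9986), Gp49a (0.9986), Glipr2 (0.9983) and Hrh4 (0.9982). Lilrb4 and Gp49a are near-identical neighbours, so the split of reads between them is uncertain. Hrh4 had 523 reads over GATA2-GMP KO and 560 over GATA2-GMP WT, and none in GMP of either genotype, at least 313-fold higher in KO and at least 278-fold higher in WT over a floor of 3 counts for the group, and at least 199-fold and 157-fold on raw totals. Tnfrsf18 had 192 ± 60.7 CPM in GATA2-GMP KO and 167 ± 36.2 CPM in GATA2-GMP WT, against 1.56 ± 0.36 CPM in GMP KO and 1.23 ± 0.15 CPM in GMP WT (SD, n = 3 each).

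For Id1, 816 of 3772 genes searched had an r above 0.95, and the 5 most alike were Lyrm1 (0.9911), 2610019E17Rik (0.9906), Ndufs8 (0.9906), Rpl41 (0.989) and Dstn (0.989). All 5 rose between the stages in both genotypes, by 2.29 to 3.34 log2 units in KO and by 2.28 to 3.72 in WT. None of them passed the genotype test in GMP, where their log2 differences were 0.06 to 0.47. The 1.003 of Id1 there was the value that chose it, so it is not set against these. Id3 was not searched because it did not pass the filter.

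Markers of other cells moved with stage beside the Id genes. Summed mast cell and basophil markers were 8279 to 13800 CPM in GATA2-GMP KO and 4863 to 13900 CPM in GATA2-GMP WT, against 291 to 343 CPM in GMP KO and 329 to 361.5 CPM in GMP WT, with 9 of 9 tested higher in each genotype. Dendritic cell markers summed to 167 to 238 CPM in GATA2-GMP KO and 41.9 to 81.6 CPM in GATA2-GMP WT, against 24.5 to 29.8 CPM in GMP KO and 25.0 to 37.7 CPM in GMP WT. Of 5 tested, 4 rose and Flt3 fell in KO, where 38.6% of all genes rose and 40.0% fell. In WT 3 rose and Flt3 fell, where 34.1% rose and 36.4% fell. Genotype in GATA2-GMP called 0 of 4 by edgeR, and 3 higher by DESeq2. Lymphoid and natural killer cell markers, of cells that use Id2, summed to 36.2 to 53.4 CPM in GATA2-GMP KO and 37.4 to 61.2 CPM in GATA2-GMP WT, with 4 of 12 at 0 reads in KO and 7 of 12 in WT. The natural killer cell genes Ncr1, Il2rb and Gzma were at 0 in both, and Klrb1c was at 0 in WT and had reads in KO. Neutrophil markers rose in 10 of 10 and eosinophil markers in 8 of 8 tested in each genotype, where 38.6% of all genes rose in KO and 34.1% in WT. In KO the eosinophil count was 7 by DESeq2 and 7 with the block, and 6 to 8 with a library left out. The part of each cell type in the Id levels was not tested.

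In GMP, where Id1 was higher in KO, summed neutrophil markers were 43.6 to 147 CPM in KO and 24.5 to 43.95 CPM in WT, and eosinophil markers 296.5 to 611 CPM in KO and 48.4 to 243 CPM in WT. Of 6 eosinophil markers tested edgeR called 0, DESeq2 called 1 higher and the block called 2 higher. Prg2, the largest part of their sum, had 309.5 ± 132.4 CPM in KO and 105.9 ± 76.5 CPM in WT (SD, n = 3 each, log2 1.535, SE 0.745, edgeR adjusted p = 0.461). Without the block edgeR called 1 of 9 tested neutrophil markers higher, Cd177 (log2 1.38, edgeR adjusted p = 0.00219), and with the block 7, where 3.30% of all genes were higher. Fcer1a, a mast cell and basophil receptor chain, had 1.73 ± 0.42 CPM in KO and 0.632 ± 0.279 CPM in WT (SD, n = 3 each, log2 1.49, SE 0.32, edgeR adjusted p = 0.0224). That call was lost without GMP WT replicate 1 (0.106), GMP WT replicate 2 (0.0906) or GMP KO replicate 1 (0.0583). Of 7 mast cell and basophil markers tested DESeq2 called 2 higher, and the block called 2 higher and 1 lower. Of the GMP markers Elane, a primary granule protease, fell by 1.18 (edgeR adjusted p = 1.01e-05), and with the block 3 of 8 were lower, where 4.73% of all genes were. These differences stood beside that of Id1 in the same libraries, and their part in it was not tested.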

How the data were processed

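RNA-seq gene counts were analysed from 12 libraries, 3 per group. The authors deposited whole-number read counts per gene symbol, 1 table per library, not normalized, judging by the values. The submitters' processing notes name HTSeq, DESeq, SAMtools 0.1.14 and STAR 2.3.0, with no role, and the build mm9. The strand setting and annotation are not given in the sources used here. The 5 counter rows (55.8 to 66.5% of records) were set aside. Of 27 gene names turned into dates in the tables, 23 were restored and 4 left out. No libraries were copies, since the closest pair differed in 14460 genes.

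Counts were fitted with edgeR 4.0.16 (R 4.3.3; filterByExpr, TMM, glmQLFit robust, glmQLFTest) within each comparison, and every tested gene entered the Benjamini-Hochberg adjustment (threshold 0.05). The fits were tested on simulated data. Alternatives were DESeq2 1.42.0, its size factors, no filter, raw totals, a replicate block and leaving out each library. "Rose", "fell" and "called" refer to this threshold. CPM per kilobase used GENCODE vM1 exon lengths. Ratios of low counts have exact 95% (Clopper-Pearson) intervals.

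The genes and lists were chosen with earlier results of these data known. The named genes were Id1 to Id4, the E proteins, Xbp1, called list members in genotype comparisons, and up to 4 members with the smallest p per list (markers aside) and stage comparison. Smad1, Ski, Bhlhe41, Ascl2, Cbfa2t3 and, for genotype, Smad7 and Prg2 were named after their values were seen, and genes called under the block for that reason. Spi1, Siglecf and Adgre1 were not found under these names. Same-numbered GMP libraries deviated together (correlations 0.264, 0.193 and 0.127 across genes). Their pairing was inferred from this alone, since the labels give only replicate numbers. Same-numbered libraries did not deviate together in GATA2-GMP (-0.129, -0.233 and -0.410) or between stages (-0.037 to 0.037).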

Additional observations from a re-analysis of the deposited data

Results flagged for a closer look

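Among the list genes, edgeR called the genotype difference in GATA2-GMP minus that in GMP for the eosinophil ribonuclease genes Ear1 and Ear2 alone. The difference between the stages was -6.74 for Ear1 (log2, SE 0.92, edgeR adjusted p = 0.0277) and -6.58 for Ear2 (SE 1.01, edgeR adjusted p = 0.0321), where 0.0859% of genes were called. In GATA2-GMP, Ear1 had 2.03 ± 0.50 CPM in KO and 185 ± 160.5 CPM in WT, and Ear2 had 0.829 ± 0.204 CPM in KO and 66.98 ± 54.8 CPM in WT (SD, n = 3 each). In GMP, Ear1 had 0.866 ± 0.187 CPM in KO and 0.702 ± 0.392 CPM in WT. Ear2, at 0.269 ± 0.108 CPM in GMP WT (SD, n = 3), was not tested for genotype in GMP alone. The genotype difference in GATA2-GMP alone was -6.51 for Ear1 (SE 0.67) and -6.30 for Ear2 (SE 0.64, edgeR adjusted p = 0.00899 for both). Both of these calls were lost without GATA2-GMP KO replicate 1 (edgeR adjusted p = 0.0951) or GATA2-GMP KO replicate 3 (0.0584). With a library left out, 0 to 7 eosinophil markers were called in GATA2-GMP alone, and 0 to 7 for the difference between the stages. At an unadjusted p under 0.05, 8 of 8 eosinophil markers tested were lower in GATA2-GMP KO, and 8 of 8 for the difference between the stages. DESeq2 called 7 lower in each, where it called 504 and 738 of all genes. The direction was thus shared by the list rather than particular to Ear1 and Ear2. With a replicate block the differences between stages were -6.39 and -6.36, about as large, with edgeR adjusted p of 0.291 and 0.147. The genes are near-identical copies, so the split of reads between them is uncertain. With edgeR 0 of the E protein, bHLH, BMP, Smad, inhibitor, Id-acting, lineage or responding genes passed this test. At an unadjusted p under 0.05 each list held 1 to 4 such genes, DESeq2 called 0 to 2 per list, and leaving out a library gave at most 2 per list.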

How the results depend on the processing

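Id2 kept its rise between the stages in every alternative run, with log2 fold changes of 8.13 to 8.63 in KO and 8.69 to 9.08 in WT when each library was left out (adjusted p of all alternatives at most 1.32e-05 in KO and 6.21e-05 in WT). The Id1 difference in GMP ran from 0.94 to 1.06 and that of Id2 from 0.14 to 0.55. In GATA2-GMP the sign of both genes turned on single libraries. Id1 ran from -0.57 to 0.36 (adjusted p 0.449 to 0.998), and was 0.07, 0.36, 0.13 and 0.18 without WT replicate 1, WT replicate 2, KO replicate 1 and KO replicate 2. Id2 ran from -0.41 to 0.10 (adjusted p 0.522 to 0.979), and was 0.04, 0.10 and 0.08 without WT replicate 2, KO replicate 1 and KO replicate 2. The stage value of Id1 ran from 3.411 to 4.197 in KO and from 4.68 to 5.52 in WT. The interaction ran from -1.58 to -0.65 for Id1 and from -0.74 to -0.23 for Id2.

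Genes called in GATA2-GMP numbered 44, against 504 with DESeq2, 294 with no filter, 3 with the replicate block and 0 to 525 with a library left out. Interaction calls numbered 11, against 738 with DESeq2, 17 with DESeq2 size factors, 40 with no filter, 0 with the block and 0 to 1179 with a library left out. In GMP the block rests on a pairing inferred from these same data. It gave 964 calls against 381 without it, and leaving out a library gave 209 to 398. Stage calls numbered 9777 in KO and 8638 in WT, and with a library left out ran from 9026 to 10669 in KO and from 7621 to 9826 in WT. With no filter there were 11220 in KO. With the block Id1 was 0.99 in GMP and -0.01 in GATA2-GMP, and Id2 was 0.32 and -0.11. The block ended the stage calls of Acvrl1 in both genotypes, of Smad2, Ski and Vwf in WT, and of Runx1, Socs3, Ear2 and Alas2 in KO, with log2 fold changes about as large (Smad2 0.43 and Ski 0.54 under the block). On raw totals Tgfbr1, Smad2, Ski, Ikzf1 and Cd79b turned negative between the stages in WT, and Runx1 in KO. Of the counts of list members over all alternatives, 99 moved by over 1.5 times and 853 did not. The causes of these changes were not tested. Id3, at 0 to 10 reads per library, was limited by depth.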
